A study of Mus musculus with 6 samples.

Results

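B lineage cells were followed across marrow and blood of aged and young wild-type mice. A cell was taken as a member when it had at least 2 unique molecular identifiers (UMIs, the tags that count captured RNA molecules) of Cd79a and at least 1 of Cd79b, the pair of signalling chains that carry the B cell receptor. It also had no UMI of Siglech or Cd3e, markers of plasmacytoid dendritic and T cells, and fewer than 100 UMIs per 10000 of the neutrophil granule genes Camp, Ngp and Ltf together. The rule found 430 members among 26893 cells with at least 500 UMIs and at most 10% mitochondrial UMIs, out of 28055 cells deposited. Since Cd79a, Cd79b and the 5 genes that had to be absent or low chose the members, their levels are a description.

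The study held 6 libraries, 1 for each group, so no group had a second library. Marrow came from aged and from young mice whose middle cerebral artery had been occluded 24 h earlier (an experimental stroke) and from aged and young mice at steady state, and blood came from aged and young mice at steady state. All mice were wild type by their labels, which give neither ages nor the number of mice in a library. The marrow had been enriched for Gr1+ and c-kit+ fractions and the blood had been sorted into CD11b+ Ly6G+ and CD11b+ Ly6G- fractions. These gates aim at myeloid and progenitor cells, so the B lineage cells are those that came through them and not the B cells of the tissue. With 1 library per group, differences between animals were not measured.

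B cells form in the marrow, where the recombinase genes Rag1 and Rag2 and the nucleotide-adding enzyme TdT (Dntt) build the immunoglobulin genes. A new heavy chain is first tested with a surrogate light chain, made of the products of Vpreb1, Vpreb2 and Igll1, before a real light chain replaces it. As they mature, in marrow and after leaving it, cells gain IgD, more MHC class II, CD20 (Ms4a1) and CD23 (Fcer2a). Some later become antibody-secreting cells that make the joining chain Jchain.

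Promoters of 4 genes are shown. Vpreb1, Igll1 and Rag1 belong to the early stage and had few or no UMIs in blood members. Vpreb3 was also detected in blood, in 73 of 207 members in aged and 27 of 50 in young. They come from RefSeq with the build GRCm38.p6 and end at the base before the RefSeq gene start. In the GENCODE annotation Vpreb1 spans chr16:16868403-16870843, and its window here lies inside that span. Capitals mark a match, on either strand, to CAGGTG, an E-box of the kind bound by E2A, in the first 3 and to ATTTGCAT, the octamer of immunoglobulin promoters, in Vpreb3. CAGGTG was found in 17.2% and ATTTGCAT in 1.601% of 32851 promoter windows of the same length, and the 2 motifs do not overlap here. The matches begin 88, 8, 135 and 45 bases before the start of Vpreb1, Igll1, Rag1 and Vpreb3. The windows are chr16:16869256-16869505 (minus strand) for Vpreb1, chr16:16863986-16864235 (minus strand) for Igll1, chr2:101649533-101649782 (minus strand) for Rag1 and chr10:75948050-75948299 (plus strand) for Vpreb3.
Vpreb1: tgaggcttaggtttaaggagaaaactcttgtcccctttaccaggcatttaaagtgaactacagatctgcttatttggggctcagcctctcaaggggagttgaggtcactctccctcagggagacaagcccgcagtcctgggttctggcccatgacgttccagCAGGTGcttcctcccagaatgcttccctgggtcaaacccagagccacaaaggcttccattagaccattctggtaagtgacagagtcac
Igll1: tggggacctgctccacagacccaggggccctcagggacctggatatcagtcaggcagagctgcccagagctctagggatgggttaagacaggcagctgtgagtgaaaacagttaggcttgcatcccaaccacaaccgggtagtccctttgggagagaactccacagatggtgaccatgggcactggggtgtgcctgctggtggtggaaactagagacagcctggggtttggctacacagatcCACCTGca
Rag1: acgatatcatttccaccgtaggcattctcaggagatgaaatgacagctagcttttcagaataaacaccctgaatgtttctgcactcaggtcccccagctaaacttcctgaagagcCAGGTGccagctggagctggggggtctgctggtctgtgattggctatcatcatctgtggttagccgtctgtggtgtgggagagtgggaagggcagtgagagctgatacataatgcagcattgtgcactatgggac
Vpreb3: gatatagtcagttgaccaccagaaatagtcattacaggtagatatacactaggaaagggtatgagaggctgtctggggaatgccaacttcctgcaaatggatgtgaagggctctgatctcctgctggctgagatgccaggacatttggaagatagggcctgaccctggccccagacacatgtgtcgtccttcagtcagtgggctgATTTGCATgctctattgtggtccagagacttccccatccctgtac

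Ms4a1, which the rule did not use, was detected in 29 of 41 members in aged and 70 of 81 in young marrow after stroke. It was detected in 14 of 32 in aged and 10 of 19 in young steady-state marrow, and in 201 of 207 in aged and 47 of 50 in young blood. At most 1.15% of the other cells of any library had an Ms4a1 UMI, although their median depth was higher than that of the members in the 4 marrow libraries. These other cells leave out those that met the other terms with 1 Cd79a UMI. The same holds below for the Ccl5 shares and for Itgb1, Ahnak, C130026I21Rik, Cd72, Ccnd2 and Ptpn22. Among the cells left out, 10 of 29 in aged and 9 of 24 in young steady-state marrow had an Ms4a1 UMI. The marker thus set members apart from the remaining cells in every library, and most closely in blood. In steady-state marrow the cells just outside the rule often carried it too.

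The 2 steady-state marrow libraries recorded Cd79a differently from the rest. Members had 1.45 and 1.21 Cd79a UMIs for each Cd79b UMI in aged and young marrow after stroke, against 0.481 and 0.589 in aged and young steady-state marrow, and 1.20 and 1.54 in aged and young blood. Among cells picked by at least 2 Ebf1 and 3 Cd79b UMIs instead, 27 of 28 in aged and 70 of 70 in young marrow after stroke had 2 or more Cd79a UMIs, against 18 of 40 and 13 of 45 in aged and young steady-state marrow. Just inside the threshold, with 2 Cd79a UMIs, lay 19 and 7 cells in aged and young steady-state marrow, and just outside, with 1 UMI, lay 29 and 24. In marrow after stroke and in blood between 1 and 3 cells lay just inside and between 1 and 8 just outside. Vpreb2 had no UMI among the members outside the steady-state marrow libraries. In marrow after stroke the other cells of both libraries also had 0 Vpreb2 UMIs, against 73 and 72 in the other cells of aged and young steady-state marrow. The sources used here do not say how each library was counted, so shares in steady-state marrow and after stroke are given side by side and cannot be told apart from a difference in counting.

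Members made up 1.54% of the cells of aged marrow after stroke (41 cells, exact binomial 95% interval 1.11% to 2.09%) and 3.58% of young (81 cells, 2.85% to 4.43%). At steady state they were 0.501% in aged marrow (32 cells, 0.343% to 0.706%) and 0.231% in young marrow (19 cells, 0.139% to 0.361%). In blood they were 3.87% in aged (3.37% to 4.43%) and 2.46% in young (1.83% to 3.24%). The aged library was thus below the young one after stroke and above it in steady-state marrow and blood, and the intervals of the steady-state marrow pair overlapped while those of the other pairs did not. With Cd79b and Ebf1 in place of Cd79a, the steady-state marrow shares were 0.626% in aged and 0.548% in young. All intervals cover counting error only, not differences between mice. The members carried 165463 to 1497826 UMIs per library in sum, with medians of 4015 to 6588 UMIs per cell. Of the members, 21 exceeded a doublet score of 0.25, all in blood (17 of 207 in aged, 4 of 50 in young), a score that recognised 9.32% to 53.4% of simulated doublets, fewest in marrow after stroke. Of all members, 5 had a barcode that also occurs in another library.

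Members were grouped by genes the rule did not use. Cells of the surrogate light chain group had at least 2 UMIs of Vpreb1, Vpreb2, Igll1 and Dntt together, and the MHC class II group had at least 3 UMIs of H2-Aa, H2-Ab1 and H2-Eb1 without meeting that limit. Vpreb2 could count toward the surrogate light chain limit in steady-state marrow alone, since members of the other libraries had no UMI of it. Shares without Vpreb2 are not given here. Mitotic cells, which may also fall in either group, had at least 3 UMIs of 12 mitosis genes. There were 26 cells in the surrogate light chain group, 383 in the MHC class II group and 21 in neither, and 9 of the 30 mitotic cells were in the surrogate light chain group.

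Cells of the surrogate light chain group were found in the marrow libraries and in neither blood library. After stroke they were 1 of 41 members in aged (2.44%, 0.0617% to 12.9%) and 7 of 81 in young marrow (8.64%, 3.55% to 17.0%). At steady state they were 10 of 32 in aged (31.2%) and 8 of 19 in young marrow (42.1%), with intervals of 16.1% to 50.01% and 20.3% to 66.5% that overlap widely. Blood had 0 of 207 in aged, which at a floor of 3 cells allows a share of up to 1.45% (exact interval up to 1.77%), and 0 of 50 in young, which allows up to 6% (exact interval up to 7.11%). These limits concern cells in which the transcripts were detected. The MHC class II group leaves out the surrogate light chain group by definition, so these shares are not independent. It held 95.1% of members in aged and 81.5% in young marrow after stroke, and 59.4% and 21.1% in aged and young steady-state marrow. In blood it held 205 of 207 in aged and 50 of 50 in young. Cells of the surrogate light chain group that also had at least 3 MHC class II UMIs numbered 0 and 1 in aged and young marrow after stroke. In aged and young steady-state marrow they numbered 2 of 32 and 5 of 19 members. Mitotic cells were 3 of 41 and 3 of 81 in aged and young marrow after stroke, 9 of 32 and 12 of 19 in aged and young steady-state marrow, and 3 of 207 and 0 of 50 in aged and young blood. With every cell thinned to 1000 UMIs the surrogate light chain group numbered 0 of 41 in aged and 3 of 80 in young marrow after stroke, and 8 of 32 and 5 of 19 in aged and young steady-state marrow. The thinned MHC class II shares were 68.3% and 63.8% in aged and young marrow after stroke and 37.5% and 10.5% in aged and young steady-state marrow, so they depend on depth. With 1 Cd79a UMI allowed in the rule, the surrogate light chain group was 26.2% and 27.9% and the MHC class II group 54.1% and 34.9% of 61 aged and 43 young members of steady-state marrow.

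**Figure D1:**
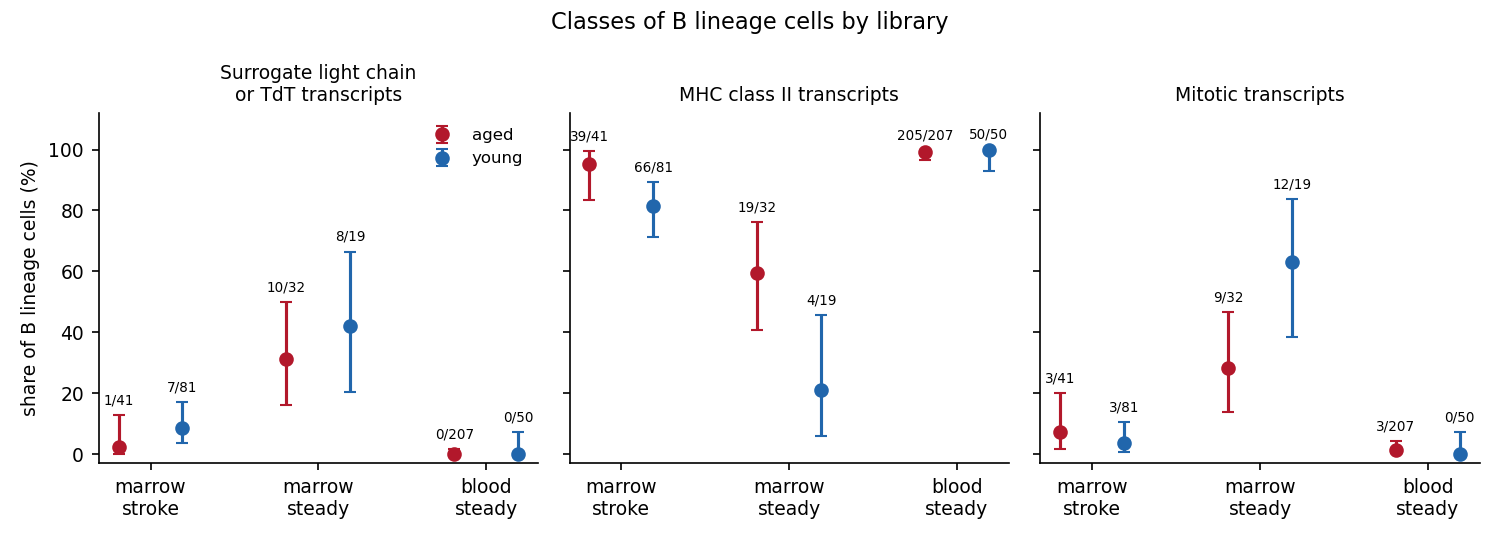
Share of B lineage cells in percent (vertical axis) in the surrogate light chain group, in the MHC class II group or with mitotic transcripts in each library, aged left of young. Points are shares, bars exact binomial 95% intervals and labels cell numbers, and the surrogate light chain group stands at 31.2% and 42.1% in aged and young steady-state marrow and at 0 in both blood libraries.

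The 26 cells of the surrogate light chain group also carried transcripts of the recombinase. Rag1 stood at 527 CPM (counts per 1000000, UMIs of the gene in the summed cells over all their UMIs) in them and was present in 76.9% of the cells, against 0 CPM in the 383 cells of the MHC class II group. Il7r, the receptor for the growth factor interleukin 7, stood at 482 CPM in the 26 cells and 3.57 CPM in the MHC class II group. The progenitor factors Myb and Sox4 were at 342 and 611 CPM in the 26 cells, against 17.5 and 16.1 CPM. Ebf1, which commits cells to the lineage, was at 1748 CPM in the 26 cells and 843 CPM in the MHC class II group, while Pax5, which guards that identity, was at 241 and 303 CPM. The mature-stage genes lay the other way. Ms4a1 was at 67.2 CPM in the 26 cells and 796 CPM in the MHC class II group, Ighd at 89.6 and 647 CPM, and Klf2, a factor of quiescence and homing, at 213 and 986 CPM. The kappa light chain gene Igkc was at 756 CPM in the 26 cells and 33645 CPM in the MHC class II group, or 8659 CPM in the 375 cells of that group that were not Jchain-rich (8 were, as described further on). Within libraries Klf2 did not always lie that way, at 400 CPM in the 1 cell and 341 CPM in the MHC class II group of aged marrow after stroke, and 255 and 169 CPM in young steady-state marrow, where Myb was at 274 and 289 CPM. Cells of different libraries are summed in the other values, 255 of the 383 cells of the MHC class II group came from blood, and no test was run between these groups.

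Across libraries the genes of receptor assembly were high in steady-state marrow and at or near 0 in blood. Dntt was at 2.86 CPM in aged and 185 CPM in young marrow after stroke, 672 CPM in aged and 586 CPM in young steady-state marrow, and 0 CPM in both blood libraries. Vpreb1 was at 5.73 and 132 CPM in aged and young marrow after stroke, 293 and 139 CPM in aged and young steady-state marrow, and 0.668 and 0 CPM in aged and young blood. Rag1 was at 0 and 41.0 CPM in aged and young marrow after stroke, 210 and 103 CPM in aged and young steady-state marrow, and 0 CPM in both blood libraries. These 3 genes were low in aged marrow after stroke, where 1 cell of the surrogate light chain group was found, and present in young marrow after stroke, where 7 were found. Vpreb3, a chaperone of early receptor chains, reached further, with 246 CPM in aged and 759 CPM in young marrow after stroke and 156 and 199 CPM in aged and young blood.

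**Figure D2:**
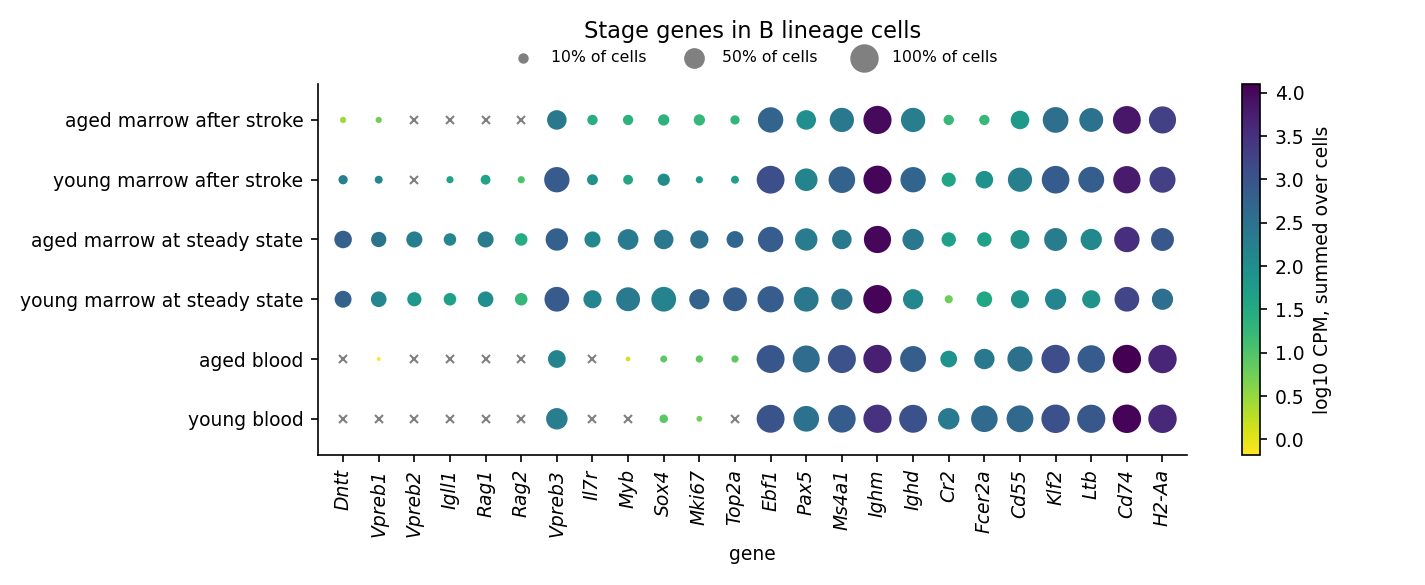
Genes (horizontal axis) by library (vertical axis, aged above young) in B lineage cells, with dot area for the percent of cells with a UMI, colour for log10 of the summed level in CPM and a cross for no UMI. Dntt, Vpreb1 and Rag1 stand at 672, 293 and 210 CPM in aged steady-state marrow and at or below 0.668 CPM in blood, while Fcer2a stands at 238 and 440 CPM in aged and young blood.

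Within marrow after stroke, the aged library was lower than the young one for genes of receptor assembly and for several mature genes. The log2 ratio of aged over young was -6.01 for Dntt (95% interval -11.3 to -3.50, from 1 and 99 UMIs) and -4.53 for Vpreb1 (-7.61 to -2.63, from 2 and 71 UMIs). For Rag1, with 0 UMIs in aged, the level was at most 0.209 of the young one, counting 3 UMIs as the floor of the aged library. All 3 measured genes of the pre-B receptor list lay at least 2-fold lower in aged, as did 6 of 15 lineage transcription factors and 8 of 15 mature surface genes, where 4.04% of the 2029 measured genes did so, and measured means at least 50 UMIs in the 2 libraries together. The median log2 ratio was -0.44 over the transcription factors and -1.05 over the mature surface genes, against -0.11 over all measured genes. Fcer2a was lower by 2.29 on the log2 scale (17.2 CPM in aged and 84.0 CPM in young), Ighd by 1.40 (200 and 530 CPM) and Ms4a1 by 1.20 (243 and 560 CPM). All 8 neutrophil markers were present beside these, with a summed level of 91107 CPM in aged and 57905 CPM in young members, and their part in the ratios was not tested. These values compare 2 libraries and have no replicate check.

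Genes of MHC class II presentation were higher after stroke than at steady state in the members of both ages, which is a comparison of differently composed cells. Of 9 measured genes of MHC class II presentation, 6 were at least 2-fold higher in aged and 7 of 9 in young mice, where 11.2% of 1458 and 12.8% of 1785 measured genes were. Their median log2 ratio was 1.10 in aged and 1.96 in young mice, against -0.25 and -0.30 over all measured genes. Cd74, the chain that escorts MHC class II, was at 6842 CPM after stroke and 3300 CPM at steady state in aged, and at 6162 and 1583 CPM in young mice. Of the mature surface genes, 1 of 9 measured was at least 2-fold higher in aged and 8 of 13 in young mice, with medians of 0.02 and 1.23. In aged members Ms4a1 was at 243 CPM after stroke and 240 CPM at steady state, Ighd at 200 and 248 CPM, and Fcer2a at 17.2 and 45.0 CPM. All 4 measured mitosis genes were at least 2-fold lower after stroke in each age, where 17.1% (aged) and 20.7% (young) of genes were. Top2a was at 20.04 and 503 CPM in aged and 46.6 and 683 CPM in young mice. Its log2 ratio was -4.65 in aged and -3.87 in young members, and -1.02 and -1.06 in the other cells of the same libraries. Mki67 had ratios of -4.35 and -3.34 in members and -1.35 and -1.17 in the other cells. Progenitor transcripts in members, given further on, were also lower after stroke, and their part was not tested. The surrogate light chain group and the mitotic cells made up smaller shares of the members after stroke than at steady state in each age. In young marrow the surrogate light chain group numbered 7 after stroke and 8 at steady state, and mitotic members 3 and 12. These were found among 2265 and 8213 cells within the UMI and mitochondrial limits. In aged marrow the numbers were 1 and 10, and 3 and 9, among 2655 and 6389 such cells. Among all such cells the young surrogate light chain group was thus not lower after stroke. The Cd79a detection described above differs along the same line.

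Of the glucocorticoid-responsive list, 4 of 6 measured genes were at least 2-fold higher after stroke in aged and 5 of 10 in young mice, where 11.2% and 12.8% of all measured genes were. The medians over the list were 1.57 and 1.18, against -0.25 and -0.30 over all measured genes. Tsc22d3, which encodes the glucocorticoid-induced leucine zipper, was at 246 CPM after stroke and 75.1 CPM at steady state in aged mice, a log2 ratio of 1.71 (0.9986 to 2.49). In young mice it was at 386 and 42.3 CPM, a log2 ratio of 3.19 (2.12 to 4.52). In the other cells of the same libraries the ratio for Tsc22d3 was 0.71 in aged and 1.72 in young mice. Ddit4, a stress-induced brake on growth signalling, had a ratio of 3.13 in aged and 4.28 in young members, and 2.06 and 3.45 in the other cells. Btg1, an antiproliferative gene, had ratios of 1.90 and 1.50 in members and 0.89 and 0.94 in the other cells. Members and other cells lay on the same side in these 3 genes, but not in all of the list. Fkbp5, a co-chaperone of the glucocorticoid receptor, had ratios of 1.05 in aged and -0.11 in young members and 0.29 and 0.74 in the other cells, and Pik3ip1, an inhibitor of PI3 kinase, 0.70 and 0.72 in members and -0.31 and -0.10 in the other cells. Ftl1 and the transcript Gm10736, which rank among the highest ratios, had log2 ratios of 4.05 and 5.38 in aged members and 3.63 and 5.15 in the other cells. Whether a difference in counting between libraries takes part was not tested.

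At steady state the 32 aged and 19 young marrow members gave ratios without a test. Of 5 measured genes of the pre-B receptor list, 3 were at least 2-fold higher in aged, where 2.75% of 1198 genes were, and Vpreb1 had a log2 ratio of 1.07 (0.39 to 1.81). Of 6 measured DNA replication genes, 5 were at least 2-fold lower in aged, where 5.18% were, and Mcm6, a part of the replicative helicase, was at 90.1 CPM in aged and 326 CPM in young. Of 7 measured mitosis genes 1 was at least 2-fold higher and 0 were lower, and Top2a was at 503 and 683 CPM in aged and young.

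Age was tested on summed counts in the contexts with at least 30 members in each age, which are marrow after stroke and blood. The edgeR quasi-likelihood fit, with terms for context and age, holds 4 libraries and leaves 1 residual degree of freedom, so its p-values measure how far the age difference varies between 2 contexts and not between animals. Of 5490 genes tested, 28 were higher in aged (0.51%) and 18 lower (0.328%) at an adjusted p under 0.05, and 311 had an unadjusted p under 0.05. A gene can pass the filter on low counts through the libraries of 1 age alone. Ccl5, Ctla2a, C130026I21Rik, Fcrl5, Ighg2b and Ighg3 passed it through the aged libraries, so these calls are a description. The calls depended on the settings. Ccl5 alone was called under all 8 alternatives, but this too is a description. DESeq2 called 1 gene, and 11 were called without the cells over the doublet score and 17 without the 53 members rich in neutrophil transcripts.

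Ccl5 (chr11:83525778-83530518 in GRCm38), a chemokine of T and NK cells, had a log2 fold change of 4.32 ± 0.42 (with the SE after ±). It was at 163 CPM in aged and 3.73 CPM in young marrow after stroke, and at 259 CPM in aged and 19.9 CPM in young blood. A few cells held it. A UMI of Ccl5 was found in 5 of 41 and 2 of 81 members of aged and young marrow after stroke and in 29 of 207 and 7 of 50 of aged and young blood, and the top 5 cells held 93.6% of the UMIs in aged blood. Among the other cells of blood, 15.7% (aged) and 17.2% (young) had a UMI. Of the 29 cells in aged blood, 28 also had an Ms4a1 UMI and 5 had one of Nkg7, a cytotoxic granule gene. Gzma, a granzyme of cytotoxic cells, was at 165 CPM in aged and 14.2 CPM in young blood members, in 12 of 207 and 5 of 50 cells. The list of 6 NK cell markers, which holds Ccl5 itself, summed to 209 CPM in aged and 16.8 CPM in young marrow after stroke and to 508 and 45.4 CPM in aged and young blood. Gzma was at 0 in aged marrow after stroke and Klrb1c, Ncr1 and Klrk1 were at 0 in young, Klrb1c and Klrk1 were at 0 in young blood, and the part of NK transcripts in the Ccl5 difference was not tested.

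Several other genes rose. Itgb1 (chr8:128685654-128733200), the beta-1 integrin, rose by 2.10 ± 0.36 (adjusted p = 3.16e-06), with 91.6 CPM in aged and 26.1 CPM in young marrow after stroke and 219 and 45.4 CPM in aged and young blood. It was found in 15 of 41 and 11 of 81 cells of aged and young marrow after stroke, and in 102 of 207 and 8 of 50 of aged and young blood. Cd72 (chr4:43446462-43454628), an inhibitory co-receptor of B cells, rose by 1.56 ± 0.29 (adjusted p = 3.51e-05), with 283 and 106 CPM in aged and young marrow after stroke and 231 and 73.8 CPM in aged and young blood. In aged marrow after stroke a single cell held 35.4% of its UMIs. Lgals1, a galactose-binding lectin, rose by 1.63 ± 0.32, the cyclin Ccnd2 by 1.80 ± 0.35, and Ahnak, a giant scaffold protein, by 1.50 ± 0.32 (edgeR adjusted p from 0.00011 to 0.00058). C130026I21Rik was higher by 3.12 ± 0.45, a description since it passed the filter through the aged libraries. Over all 8 alternatives its log2 difference ran from 2.45 to 3.51. Ptpn22, a phosphatase that dampens antigen receptor signals, rose by 1.25 ± 0.34 (adjusted p = 0.0331). Itgb1 was also called without the cells over the doublet score and without the cells rich in neutrophil transcripts. Cd72 was called without the cells rich in neutrophil transcripts but not without those over the doublet score. Lgals1, Ccnd2, Ahnak and Ptpn22 were called under neither. Over all 8 alternatives the log2 differences of these 4 genes stayed above 0, at 1.15 to 1.68 for Lgals1, 1.21 to 1.94 for Ccnd2, 1.10 to 1.54 for Ahnak and 0.95 to 1.42 for Ptpn22. In the other cells of blood Itgb1 was higher in aged as well (245 CPM, against 138 CPM in young), as were Ahnak (699 and 374 CPM) and C130026I21Rik (5.01 and 1.12 CPM), while Cd72 was at 6.60 CPM in aged and 6.95 CPM in young, Ccnd2 at 99.9 and 110 CPM and Ptpn22 at 59.0 and 61.7 CPM. Ctla2a, a cysteine protease inhibitor, was at 48.7 CPM in aged and 14.9 CPM in young marrow after stroke, and in blood, where the young library had 0, it was at least 9.64-fold higher in aged. Cstdc4, a gene of the stefin family with near-identical copies, was also called higher, but its 421 CPM in aged against 33.6 CPM in young marrow after stroke met 2.67 against 8.51 CPM in aged and young blood.

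Fcer2a, Cr2, Id3 and Ifi27l2a fell. Fcer2a (chr8:3681737-3694175), which encodes the low-affinity IgE receptor CD23, fell by 1.22 ± 0.30 (adjusted p = 0.00956), with 17.2 CPM in aged and 84.0 CPM in young marrow after stroke and 238 and 440 CPM in aged and young blood. It was found in 4 of 41 and 28 of 81 cells of aged and young marrow after stroke, and in 100 of 207 and 43 of 50 of aged and young blood. Cr2 (chr1:195136811-195176716), the complement receptor CD21, fell by 1.29 ± 0.35 (adjusted p = 0.0331), and Id3, an inhibitor of E proteins, by 1.41 ± 0.31 (adjusted p = 0.00146). Ifi27l2a, an interferon-induced gene, fell by 1.25 ± 0.28 (adjusted p = 0.00204), with 103 and 267 CPM in aged and young marrow after stroke and 424 and 988 CPM in aged and young blood. In the other cells of the same libraries it was lower in aged too, at 40.2 and 127 CPM after stroke and 883 and 1315 CPM in blood. Ighd, at -0.97 ± 0.29 with an adjusted p of 0.0831, and Vpreb3, at -0.97 ± 0.28 with an adjusted p of 0.0544, did not pass. The 4 calls were lost without the cells over the doublet score and without the cells rich in neutrophil transcripts. Their log2 differences over all 8 alternatives ran from -1.40 to -1.08 for Fcer2a, -1.31 to -0.70 for Cr2, -1.61 to -1.33 for Id3 and -1.30 to -0.75 for Ifi27l2a, and the source of the lost calls was not tested.

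The 18 genes called lower also held 3 haemoglobin genes and 7 processed pseudogenes. Hbb-bs fell by 4.84 ± 0.49 (adjusted p = 7.13e-20), with 159 CPM in aged and 5134 CPM in young blood, but a single cell held 55.3% of its UMIs in young blood and 5 cells held 99.2%. It was found in 133 of 207 members of aged and 19 of 50 of young blood, and in the other cells of the blood libraries it was at 6952 CPM in aged and 5919 CPM in young. The pseudogene Gm13588 was at 66.1 and 443 CPM in members of aged and young blood and at 47.1 and 234 CPM in the other cells of aged and young blood. Gm15501 was at 30.04 and 190 CPM in members of aged and young blood and at 16.4 and 56.4 CPM in the other cells of aged and young blood. In members of aged and young marrow after stroke Gm13588 was at 54.4 and 56.0 CPM and Gm15501 at 17.2 and 28.0 CPM. Gm19810 and Rpl38-ps2, also called lower, were higher in aged there, at 40.1 and 22.4 CPM and at 28.6 and 16.8 CPM. Of the 18 genes called lower, 15 were lower in aged in both contexts. The remaining calls were Gm9844, Clec7a, Chil3 and Hes1. Clec7a, which encodes the beta-glucan receptor Dectin-1 of myeloid cells, was at 11.5 and 69.0 CPM in aged and young marrow after stroke and 90.1 and 255 CPM in aged and young blood, and Chil3, a chitinase-like gene of myeloid cells, at 220 and 565 CPM in aged and young marrow after stroke and 88.1 and 193 CPM in aged and young blood. Hes1, a target of Notch, had 0 UMIs in aged and 26 in young marrow after stroke, and stood at 28.0 and 56.8 CPM in aged and young blood.

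Most gene lists held few calls. Among the lineage transcription factors 20 of 22 passed the filter on low counts, 0 rose and Id3 fell, with a median log2 difference of -0.21, where all tested genes had -0.01. In the B cell receptor list all 23 passed, Cd72 rose and Cr2 fell (median 0.06), and in the mature surface list all 19 passed, 0 rose and Fcer2a fell (median -0.30). In blood alone 0 of 19 mature surface genes and 0 of 18 measured transcription factors lay 2-fold apart, where 4.33% of 4804 genes were higher and 2.91% lower in aged. None of 11 MHC class II genes was called (median 0.19), and Cd74 differed by 0.19 ± 0.31. Of the age-associated B cell list, 8 of 13 passed and 3 rose (0.51% of all tested genes did), namely Fcrl5, Lgals1 and Ahnak (median 0.70). Fcrl5 passed the filter through the aged libraries alone, so this count is a description. It was at 22.9 and 7.46 CPM in aged and young marrow after stroke and 44.1 and 0 CPM in aged and young blood. In the MHC class II group alone 0 of the 7 genes of this list that passed were called. None of 4 measured genes of 7 in the B-1 list was called (median 0.95). In the interferon list 22 of 40 passed and Ifi27l2a was the single call, falling (median -0.22). None of 13 glucocorticoid-responsive genes was called (median -0.29), nor any of 19 immediate early genes (median -0.21).

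**Figure D3:**
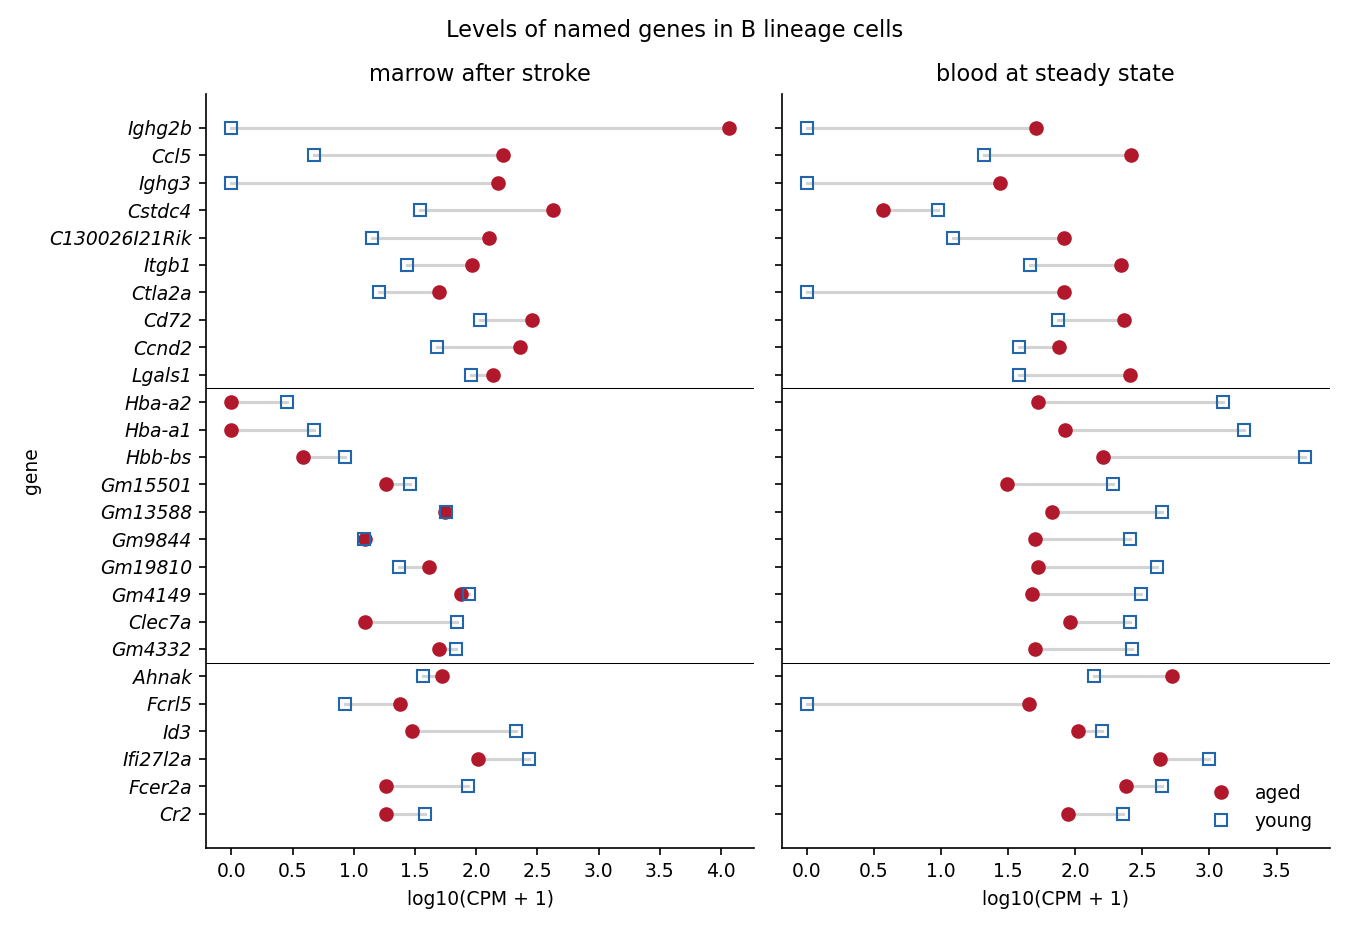
Levels as log10(CPM + 1) (horizontal axis) of genes called with age (vertical axis) in B lineage cells of marrow after stroke and blood, filled circles aged and open squares young. Itgb1 and Cd72 lie higher in aged in both contexts, and Fcer2a and Cr2 lie lower.

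Within the MHC class II group alone, which leaves out the surrogate light chain group, the same fit tested 4931 genes and called 7 higher (0.142%) and 3 lower (0.0608%). Ccl5 differed by 4.38 ± 0.45, a description as in all members. Itgb1 differed by 2.11 ± 0.33 (edgeR adjusted p = 0.0122) and Cd72 by 1.75 ± 0.27 (edgeR adjusted p = 0.0109). Fcer2a differed by -1.24 ± 0.32 there, nearly the size found in all members, with an adjusted p of 0.278 by edgeR. The 3 genes called lower were haemoglobin genes.

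A subset of the aged blood members carried Zbtb32, a transcriptional repressor of B cells, or Fcrl5, an Fc receptor-like protein of innate-like and memory B cells. The pair was chosen after values were seen, from the same libraries that called Fcrl5, so the counts are a description. A UMI of either was found in 63 of 207 members of aged blood (30.4%, 24.2% to 37.2%) and in 2 of 50 of young blood (4%, 0.488% to 13.7%). It was found in 6 of 41 and 4 of 81 members of aged and young marrow after stroke, and in 1 of 32 and 0 of 19 of aged and young steady-state marrow, where 0 of 19 allows, at a floor of 3 cells, a share of cells with a UMI of up to 15.8% (exact interval up to 17.6%). The other cells of the libraries had 0.202% to 0.682%. With each cell thinned to 1000 UMIs the shares were 8.70% in aged and 0% in young blood, and the median depth of the blood members was 6002 UMIs in aged and 5812 in young.

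These 63 cells differed from the other 144 members of the same library in many genes. Spn (CD43) was at 228 CPM in them and 72.9 CPM in the 144, Bhlhe41, a factor of B-1 cells, at 130 and 23.3 CPM, and Cd9 at 147 and 76.1 CPM. Ahnak was at 759 and 388 CPM, Itgb1 at 332 and 153 CPM, Ptpn22 at 232 and 59.2 CPM, and Ighm at 7413 and 4159 CPM. Other genes lay the other way. Fcer2a was at 48.9 CPM in the 63 cells and 348 CPM in the 144, Cr2 at 27.2 and 122 CPM, and Ighd at 281 and 913 CPM. Ms4a1 was present in both, at 1205 and 932 CPM. Of the age-associated B cell list, Tbx21 differed little, at 19.93 CPM in the 63 cells and 19.03 CPM in the 144. It was found in 9 of the 63 and 9 of the 144 cells. Lgals1 of that list was at 386 and 178 CPM, and Zeb2 at 194 and 153 CPM, in 38 of the 63 and 47 of the 144 cells. Ahnak, given above, is on that list too, and Fcrl5 of that list helped choose the 63. Its other genes are not given for these cells. Cd5, Itgam and Plscr1 of the B-1 list are not given for these cells, and Zbtb32 of that list helped choose them. Whether the 63 are B-1 cells or age-associated B cells was not tested. Fcer2a in the 144 cells, at 348 CPM, lay between the 48.9 CPM of the 63 and the 440 CPM of all young blood members. Ccl5 was at 23.6 CPM in the 63 and 396 CPM in the 144, but it was found in 12 of the 63 and 17 of the 144 cells, and its level rests on the few cells named above. The 63 cells had a higher median depth (7833 UMIs, against 5487), and 3 of them and 14 of the 144 were over the doublet score.

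**Figure D4:**
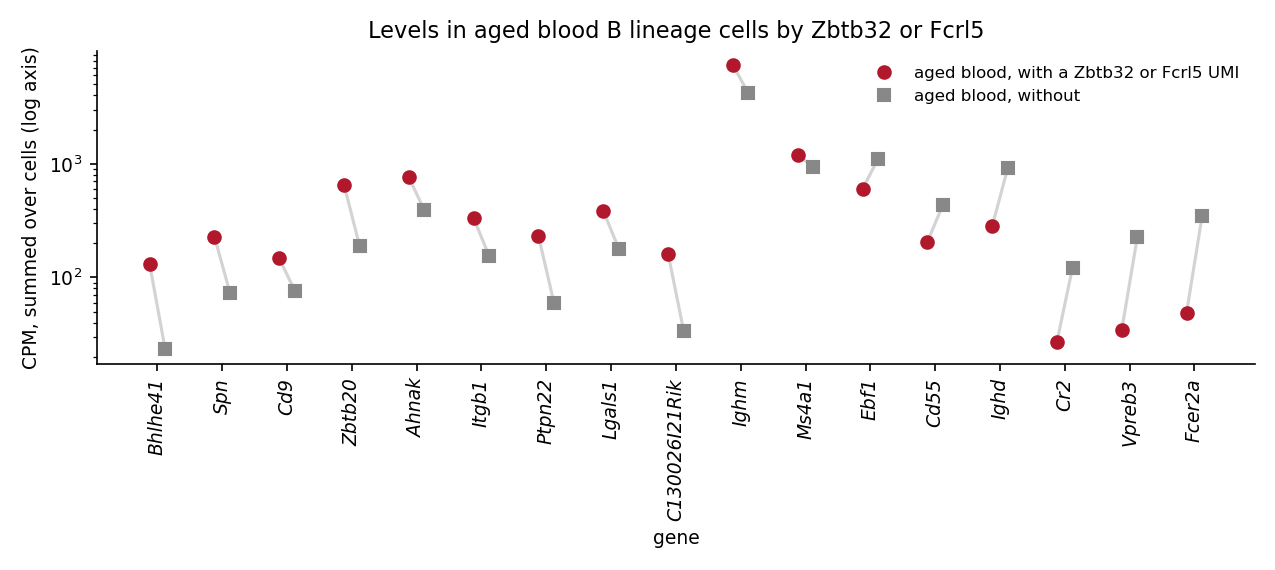
Levels in CPM on a log scale in the aged blood B lineage cells with a Zbtb32 or Fcrl5 UMI (63 cells) and without (144 cells). Spn, Bhlhe41 and Ptpn22 lie higher in the 63 cells, and Fcer2a, Cr2 and Ighd lie lower.

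In marrow, most Igkc and Ighm UMIs of the members were held by a handful of cells. Those with Jchain at 1% or more of their UMIs, a limit chosen after values were seen, numbered 3 and 3 in aged and young marrow after stroke, 4 and 1 in aged and young steady-state marrow, and 1 and 0 in aged and young blood. Their Jchain share was 1.33% to 8.98% of UMIs and immunoglobulin took 24.6% to 75.1%. Each was led by a single heavy chain gene, with Ighm in 6 cells, Ighg2b in 3 and Igha in 3, and that gene took 98.4% to 100% of the heavy chain UMIs. Xbp1, a factor of antibody secretion, had 5 to 66 UMIs in them and Ms4a1 at most 5. They held 96.0% of the Igkc UMIs of aged and 94.1% of young members in marrow after stroke, and 98.7% and 95.5% in aged and young steady-state marrow. In aged and young blood they held 16.9% and 0% of the Igkc UMIs. Of the Ighm UMIs they held 83.2% to 87.1% in the marrow libraries and 0% in both blood libraries.

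**Figure D5:**
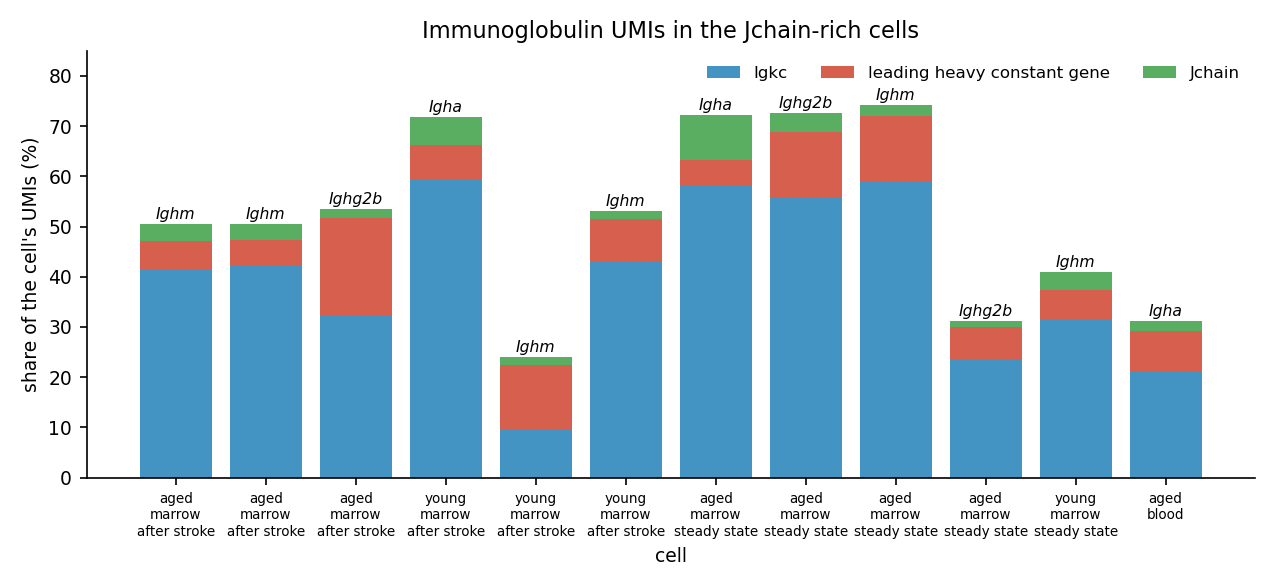
Percent of a cell's UMIs (vertical axis) taken by Igkc, by the leading heavy constant gene named above the bar and by Jchain in each of the 12 B lineage cells with Jchain at 1% or more (horizontal axis). Jchain shares run from 1.33% to 8.98%, and 6 cells are led by Ighm.

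Several age differences in antibody genes rested on single cells. Ighg2b had 4095 UMIs in aged marrow after stroke, 4078 of them in 1 cell, and 0 in young, which makes it at least 2094-fold higher with 3 UMIs as the floor per library. In aged blood it had 75 UMIs spread over 24 cells and 0 in young blood, at least 5.88-fold higher. Ighg3 had 52 UMIs in 7 cells of aged marrow after stroke and 40 UMIs in 20 cells of aged blood, and 0 in both young libraries, at least 26.6-fold and 3.14-fold higher. Outside the Jchain-rich cells, Jchain itself did not exceed 21.6 CPM in any library. Of the plasma cell list, 8 of 15 genes passed the filter and 3 rose (Ighg2b, Ighg3 and Jchain), with a median of 1.08, or 0.64 with the genes at 0 set to their bound. Ighg2b and Ighg3 passed the filter through the aged libraries alone, so this count is a description. In aged blood 1 Jchain-rich cell held all 325 Jchain UMIs. Jchain was at 6043 CPM in aged and 5295 CPM in young marrow after stroke. It was called under 1 of the 6 alternatives that tested it. Counts of the IgG genes are uncertain, since the genes resemble each other closely.

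Transcripts of other cell types were present in the members. S100a8 and S100a9 made up 2% or more of the UMIs in 9 of 41 and 12 of 81 members of aged and young marrow after stroke, 9 of 32 and 5 of 19 of aged and young steady-state marrow, and 12 of 207 and 6 of 50 of aged and young blood. The progenitor list led by Mpo and Elane summed to 289 and 87.7 CPM in members of aged and young marrow after stroke, 7151 and 6219 CPM in those of aged and young steady-state marrow, and 1.34 and 0 CPM in those of aged and young blood. Of 7 T cell markers, 6 had UMIs in members of aged and 1 in those of young marrow after stroke, 5 and 0 in aged and young steady-state marrow, and 6 and 2 in aged and young blood, with Trac at 0 in all. They summed to 48.7 and 9.33 CPM in aged and young marrow after stroke, 63.8 and 0 CPM in aged and young steady-state marrow, and 36.7 and 8.51 CPM in aged and young blood. C1qb, a macrophage gene, stood at 303 CPM in aged and 9.33 CPM in young marrow after stroke, and 258 of the 264 C1q UMIs in aged were in 1 cell. Itgam, the CD11b of the blood gate, was at 56.7 CPM in aged and 102 CPM in young blood members.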

How the data were processed

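Raw UMI counts were deposited by the authors as 1 table for the 6 libraries, with 23016 genes and 28055 cells, made with the 10x Genomics 3′ kit per the labels. Per the submitters' processing notes the tools included STAR 2.5.3a, Cell Ranger 3.0.2, featureCounts 1.6.4, Subread and UMI-tools, with GRCm38 (mm10) as the build, but the notes assign no role or order to them. The tool behind each library's counts was not stated.

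Members were chosen by the rule given at the opening, and the members and gene lists were chosen with earlier results of these data known. Doublets were kept and scored per library by comparison with simulated doublets. Counts were summed per library over members and fitted with edgeR 4.0.16 in R 4.3.3 (glmQLFit and glmQLFTest, filterByExpr, TMM scaling, terms for context and age, Benjamini-Hochberg over all genes tested, threshold 0.05), in contexts with at least 30 members in each age. The script was tested on simulated data. Other comparisons are ratios of CPM with conditional exact binomial 95% intervals, and shares have exact binomial intervals. Intervals cover counting error only. Zeros in folds were set to 3 counts per library. Genes eligible to be named were up to 10 calls per direction in order of p with at least 50 CPM in the mean of a side, up to 5 per direction and pair of libraries in order of the interval bound nearest 0, and members of the lists. Alternatives used DESeq2 1.42.0, other filters and other cell sets. Subsets by Jchain, by Zbtb32 or Fcrl5 and by neutrophil transcripts were chosen after values were seen. Library totals ran from 10208699 to 72743805 UMIs. Of the distinct barcodes, 104 of 27931 occurred in more than 1 library. The stroke comparison and that within the surrogate light chain group had been planned as fits, but a context with under 30 members in an age, or a residual degree of freedom lacking, left them as ratios. Promoter sequences came from RefSeq (GRCm38.p6), and entries for Cd79b, Ms4a1 and Ccl5 were not used here.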

Additional observations from a re-analysis of the deposited data

Results flagged for a closer look

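The log2 ratio of aged over young ran in opposite directions in different contexts for 4 genes of the members. The differences between contexts were not tested, each ratio compares 2 libraries, and the intervals cover counting error only.

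Ifi27l2a, an interferon-induced gene, had ratios of -1.37 in marrow after stroke (36 UMIs in aged and 143 in young), 1.07 in steady-state marrow (44 and 13 UMIs) and -1.22 in blood (635 and 348 UMIs). Vpreb1, of the surrogate light chain, had -4.53 in marrow after stroke (2 and 71 UMIs) and 1.07 in steady-state marrow (78 and 23 UMIs). Igha, the IgA heavy chain, had -7.93 in marrow after stroke (7 and 2626 UMIs) and 5.41 in blood (1262 and 7 UMIs), where 1 Jchain-rich cell held 2618 of the 2626 UMIs in young marrow after stroke and another held 1250 of the 1262 in aged blood. Jun, an immediate early gene, had -1.12 in marrow after stroke (15 and 50 UMIs) and 1.04 in blood (122 and 14 UMIs).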

How the results depend on the processing

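Shares of B lineage cells in steady-state marrow depended on Cd79a. With 1 UMI of Cd79a they were 0.955% in aged and 0.524% in young steady-state marrow, and with Cd79b and Ebf1 in its place 0.626% in aged and 0.548% in young steady-state marrow and 1.05% in aged marrow after stroke. Thinning to 1000 UMIs gave 0% for the surrogate light chain group in aged marrow after stroke. It gave MHC class II shares of 68.3% and 63.8% in aged and young marrow after stroke, 37.5% in aged steady-state marrow and 96.1% in aged blood. Mitotic shares were then 0% in aged marrow after stroke, 26.3% in young steady-state marrow and 0% in aged blood.

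The 46 age calls over all members became 1 with DESeq2, 2 with 1 Cd79a UMI (3 contexts), 11 without doublets and 17 without neutrophil-transcript cells, and all of the 46 that could be tested there kept their direction. The other 4 settings stayed within 1.5 times, and 46 of 46 calls were shared with DESeq2 size factors. Among MHC class II cells the 10 calls became 27 with DESeq2 size factors, 2 with DESeq2, 66 without a filter, 26 with genes of at least 10 UMIs in every library, 51 with 1 Cd79a UMI and 43 without Jchain-rich cells. Jchain there was -1.56 with DESeq2 and 1.65 with edgeR. The cause was not tested. The Ccl5 log2 difference ran from 4.3 to 4.62 over all members and from 4.37 to 4.56 in the MHC class II group.

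Leaving out a library or the blood left no residual degree of freedom or no context with enough members, so neither was run. No paired analysis was possible because each group has 1 library and the labels carry no replicate numbers. The number of members limits the steady-state marrow, with 19 in young.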
